A study of Mus musculus with 2 samples.

Results

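Jmjd8, Stub1, Prpf39, Fkbp3, Snx22, Ppib, Acat3 and Tcp1 form 4 pairs of mouse genes that lie on opposite strands and share exon sequence at their 3' ends. They are 8 of 25004 genes counted in heart messenger RNA. In each pair the second gene encodes a chaperone, a prolyl isomerase or a cochaperone, and the first, its neighbour on the other strand, was counted far more often. The pairs were picked by name from the counts described here, and their counts and ratios are therefore a description with no test. RNA came from hearts of FvB/N mice at 12 weeks of age. One library was from non-transgenic control mice and 1 from mice with the cMyBP-C delta C0-C1f transgene, a form of cardiac myosin binding protein-C (a thick-filament protein of the heart) that lacks an amino-terminal region. Each library combined 3 hearts, so the spread between animals was not measured and every interval given covers counting error only. Neither the promoter that drives the transgene nor the state of the endogenous gene is given in the sources used here.

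Chaperones and prolyl isomerases help newly made or damaged proteins to reach and keep their shape. Stub1 encodes CHIP, a cochaperone of HSP70 and HSP90 that carries ubiquitin ligase activity and marks misfolded clients for the proteasome. Fkbp3 encodes a nuclear FK506-binding prolyl isomerase, and Ppib encodes cyclophilin B, a prolyl isomerase of the endoplasmic reticulum that acts in collagen folding. Tcp1 encodes the alpha subunit of TRiC, the chaperonin ring that folds actin and tubulin. Of the neighbours, Jmjd8 encodes a JmjC-domain protein, Prpf39 a splicing factor of the U1 snRNP, Snx22 a sorting nexin and Acat3 a cytosolic acetyl-CoA acetyltransferase. In heart muscle such folding systems maintain the proteins of the contractile apparatus.

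All 4 pairs ran tail to tail, with their start sites at the far ends and their last exons interleaved, as the exon map of the pairs shows. Positions follow the GENCODE M21 annotation of GRCm38 (mm10). Jmjd8 (chromosome 17, 25828867 to 25831843, plus strand) and Stub1 (25830505 to 25833404, minus strand) shared 988 bp of exon over the transcripts listed in the files, 47.3% of the Jmjd8 exons and 49.9% of the Stub1 exons. Of these bases, 435 were Stub1 coding sequence and 81 were Jmjd8 coding sequence. A listed non-coding Stub1 transcript had no matching GENCODE model and was left out of these lengths. Prpf39 (chromosome 12, 65036333 to 65063386, plus strand) and Fkbp3 (65062424 to 65074007, minus strand) shared 317 bp, which was 7.79% of Prpf39 and 31.0% of Fkbp3. Snx22 (chromosome 9, 66065176 to 66069719, minus strand) and Ppib (66060222 to 66066623, plus strand) shared 514 bp, or 57.6% of the short Ppib transcript and 20.2% of Snx22. Acat3 (chromosome 17, 12923813 to 12940600, minus strand) and Tcp1 (12915701 to 12925067, plus strand) shared 571 bp, or 26.9% of Acat3 and 22.8% of Tcp1. In no pair did coding sequence of one gene lie on coding sequence of the other. The start sites of a pair lay between 4537 bp (Jmjd8 and Stub1) and 37674 bp (Prpf39 and Fkbp3) apart.

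**Figure D1:**
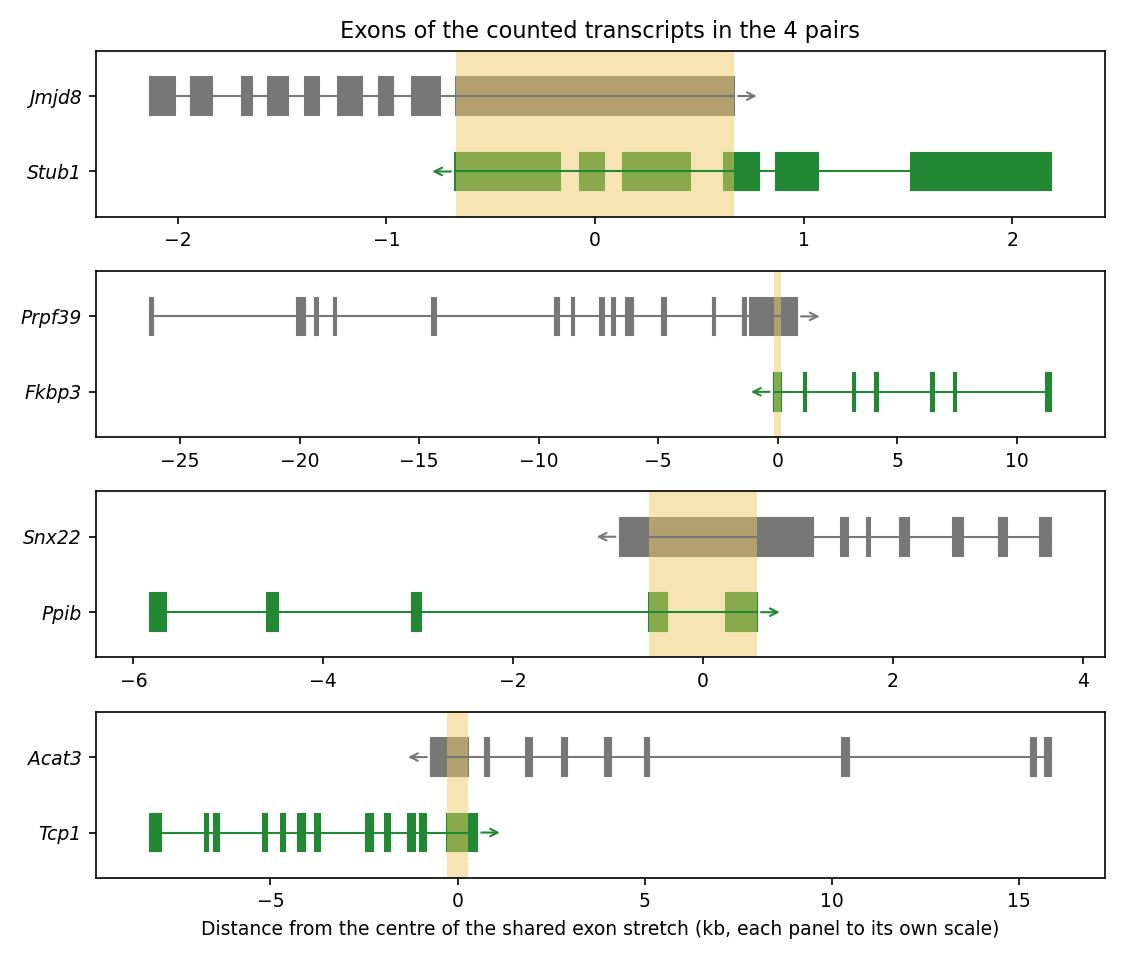
Exons (boxes) of the transcripts listed in the files for each pair against the distance in kb from the centre of the shared exon stretch, with arrows in the direction of transcription and yellow from the first to the last shared base. Grey is the neighbour and green the chaperone, isomerase or cochaperone; in every pair the arrows meet at the 3' ends. A non-coding Stub1 transcript without a GENCODE model is not drawn.

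The end of each reading frame was set against the exons of the partner gene. The last 30 coding bases are printed 5′ to 3′, with the stop codon in capitals, from GENCODE M21 transcripts. For Stub1 they are from its coding transcript, which had 0 counts in both libraries.
Jmjd8: agtgtcttcatttctaccttccttggcTAG
Stub1: tctgagaacggctgggtagaggactatTGA
Prpf39: ggacagtattatcctccacctccaactTGA
Fkbp3: tttgaagtggaattagtagacattgacTGA
Snx22: tgtcatcctgctccatcactagtgcccTGA
Ppib: gagaaacccttcgccattgccaaggagTAG
Acat3: ggagtcgcaatgtgtgttcagagagggTGA
Tcp1: gctgttcactctggagcccttgatgacTGA
For all 4 folding genes these 30 bases lay entirely within exons of the neighbour: Stub1 at chr17:25830885-25830914 (minus strand), Fkbp3 at chr12:65062686-65062715 (minus), Ppib at chr9:66066388-66066417 (plus) and Tcp1 at chr17:12924447-12924476 (plus). Among the neighbours, the ends of Jmjd8 (chr17:25830561-25830590, plus) and Acat3 (chr17:12924660-12924689, minus) lay wholly within exons of the partner too. Those of Prpf39 (chr12:65061451-65061480, plus) and Snx22 (chr9:66067101-66067130, minus) lay outside them, since these genes meet their partners only through 3' untranslated regions of 1906 and 1925 bp.

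The libraries held 170543 counts in all (non-transgenic) and 190824 (transgenic), a low depth at which 6725 and 7081 genes had any count. A gene with 0 counts could, by counting error alone, lie at up to 3 counts. Cardiomyocyte markers were counted in both libraries, with Myl2 at 2405 and 3916 counts and Actc1 at 906 and 1525. The defining markers Tnnt2 and Myl3 had 0 in both and Myh6 had 0 and 1. Tnnt2 has 9 listed transcripts and Myl3 and Myh6 have 2 each, against 1 each for Myl2 and Actc1. What part this has in their counts was not tested. Summed over each marker list, non-transgenic first, cardiomyocyte genes had 4891 and 8129 counts (10 of 12 genes counted), endothelial genes 224 and 258 (5 of 8), fibroblast genes 51 and 39 (7 of 8), smooth muscle and pericyte genes 99 and 195 (3 of 6) and macrophage genes 13 and 25 (4 of 6). T and B cell, skeletal muscle and adipocyte genes summed to at most 2 counts in either library. In whole heart RNA, fewer cells of a type and less RNA per cell cannot be told apart.

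Per the labels' protocols the libraries were made with a kit that keeps strand origin. The strand setting used for counting is not given in the sources used here, and counting with the opposite setting would give reads to genes on the other strand. Its part in the counts of these pairs was not tested, and a count of either gene of a pair cannot be assigned to that gene with certainty. The word "count" below therefore means reads assigned to a gene, not its expression.

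The neighbours ranked among the most counted genes of the heart libraries, and their folding partners did not. Prpf39 had 2336 counts in non-transgenic hearts and 2592 in transgenic hearts, rank 6 of all genes in both. Jmjd8 had 2012 and 2164 counts, rank 7 in both. Acat3 had 1245 and 1193 counts, ranks 13 and 17. These neighbours stood above nearly all other genes in either library. Snx22 had 1070 and 1259 counts, ranks 17 and 15. Summed, the 4 neighbours took 3.91% of all counts in non-transgenic and 3.78% in transgenic hearts.

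Among the folding genes, Fkbp3 had the most counts, 70 in non-transgenic and 142 in transgenic hearts. Stub1 had 48 and 49 raw counts. Ppib had 13 and 7 counts. Tcp1 had 0 counts in both libraries, on either of its accessions. The 4 folding genes together held 0.0768% and 0.104% of all counts, and in the plot of raw counts each lies below its neighbour in both libraries.

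**Figure D2:**
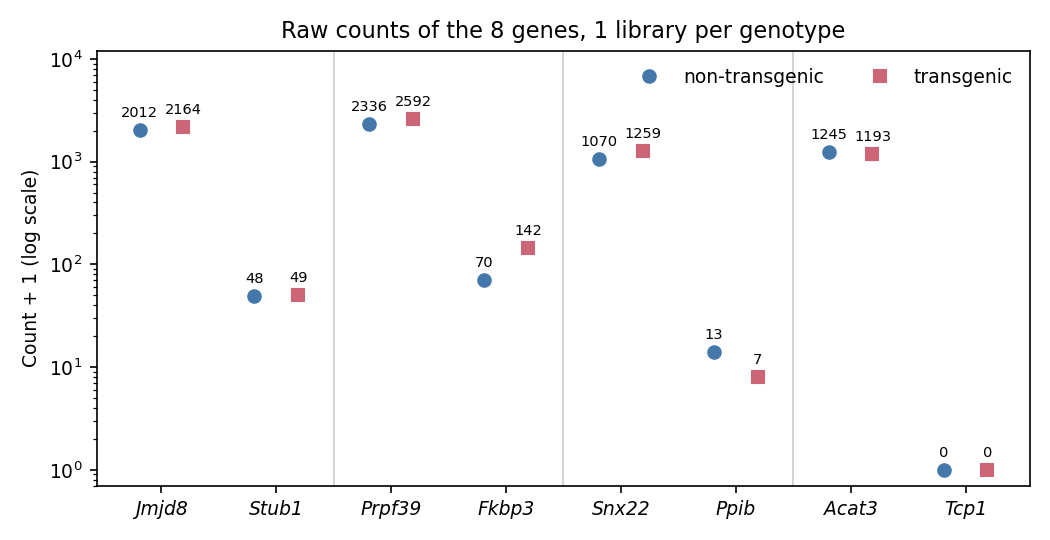
Raw counts of the 8 genes on a log scale after adding 1, circles for the non-transgenic and squares for the transgenic library, with the count printed above each point and grey lines between pairs. The neighbours sit between 1070 and 2592 counts and the folding genes between 0 and 142.

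Within each pair the folding gene held a small share of the counts, and the pairs differed in how small. Because both genes are counted in the same library, this share does not depend on how libraries are scaled. Fkbp3 held 2.91% of its pair's 2406 counts in the non-transgenic library (exact 95% Clopper-Pearson interval 2.27 to 3.66) and 5.19% of 2734 in the transgenic library (4.39 to 6.09). Stub1 held 2.33% of 2060 (1.72 to 3.08) and 2.21% of 2213 (1.64 to 2.92). Ppib held 1.20% of 1083 (0.641 to 2.04) and 0.553% of 1266 (0.223 to 1.14). In the transgenic library the intervals of these 3 genes did not overlap, and the order from high to low was Fkbp3, Stub1, Ppib. In the non-transgenic library the order was the same, but neighbours in it overlapped. Tcp1 had 0 of 1245 and 0 of 1193 counts, which at the floor of 3 counts allows a share of up to 0.241% and 0.251%. The upper bounds of the exact interval were 0.296% and 0.309%.

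Expressed as folds of the raw count, Jmjd8 exceeded Stub1 by 41.9-fold in the non-transgenic library (interval 31.5 to 57.0) and by 44.2-fold in the transgenic (33.3 to 59.9). Prpf39 exceeded Fkbp3 by 33.4-fold (26.3 to 43.0) and 18.3-fold (15.4 to 21.8). Snx22 exceeded Ppib by 82.3-fold (47.9 to 155) and 179.9-fold (87.0 to 448). Against a floor of 3 counts in place of 0 in each library, Acat3 exceeded Tcp1 by at least 415-fold and at least 398-fold, and the exact intervals reached down to 337-fold and 323-fold. By these values the Acat3 and Tcp1 pair was the most unequal in both libraries and the Prpf39 and Fkbp3 pair the least. Not all of this order lay beyond counting error. In the transgenic library the interval of Snx22 and Ppib reached past the lower bound of Acat3 and Tcp1. In the non-transgenic library the intervals of Prpf39 and Fkbp3 and of Jmjd8 and Stub1 overlapped. The intervals of Jmjd8 and Stub1 and of Snx22 and Ppib overlapped there as well.

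Transcript lengths within a pair differ, and counts per kb of exon narrowed some of these gaps. Prpf39 has 4069 bp of exon and Fkbp3 1022 bp. Per kb, Prpf39 had 574 and 637 counts and Fkbp3 68.5 and 139, a gap of 8.38-fold in the non-transgenic and 4.58-fold in the transgenic library. Snx22, with 2543 bp against 892 bp for Ppib, had 421 and 495 counts per kb against 14.6 and 7.85, a gap of 28.9-fold and 63.1-fold. Jmjd8 has 2091 bp of exon and Stub1 1981 bp over its accessions with a GENCODE model, a gap per kb of 39.7-fold and 41.8-fold. On the 1408 bp of the only Stub1 accession with counts, the gap was 28.2-fold and 29.7-fold. Only 178 of these 1408 bp lay outside the coding Stub1 transcript, which had 0 counts. How much of the 1408 bp could take counts was not tested, so both Stub1 gaps per kb are uncertain. Jmjd8 had the highest count per kb of the 8 genes, 962 and 1035, followed in the non-transgenic library by Acat3 at 586 and Prpf39 at 574.

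Between the libraries, Fkbp3 was the only one of the 8 genes past 1.5-fold with its counting interval on that side of 1. Ratios are transgenic over non-transgenic after TMM scaling. The 142 counts of Fkbp3 against 70 gave a ratio of 1.61 (95% counting interval 1.20 to 2.18). Of the 7 members with a ratio (more than 3 counts in a library; all but Tcp1), 1 was higher by this rule, 0 were lower and 6 were neither. Over all 4236 genes with a ratio 3.42% were higher and 5.90% lower, 9.32% in all. At 2-fold with the same condition on the interval, no member was called and 6.19% of all genes were. Higher genes made up 36.7% of all calls after TMM scaling, 54.4% when DESeq2 set the scaling and 62.2% on total counts. The members were chosen from the same counts, and nothing is read from their share.

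After TMM scaling all 4 neighbours had ratios below 1, and of their intervals only that of Snx22 spanned 1. Jmjd8 had a ratio of 0.855 (0.804 to 0.909) and Prpf39 of 0.882 (0.834 to 0.933). For Acat3 the ratio was 0.762 (0.703 to 0.826), the lowest of the 4. With total counts alone it was 0.856 (0.790 to 0.928), while the intervals of Jmjd8 and Prpf39 then spanned 1. Snx22 had 0.936 (0.862 to 1.02), which turned to 1.01 with DESeq2 scaling and to 1.05 with total counts alone. None reached 1.5-fold, and all 4 intervals were narrow because the counts were high.

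Stub1 and Ppib had intervals that spanned 1 and were not called. Stub1 had a ratio of 0.812 (0.534 to 1.23). At 13 and 7 counts the Ppib ratio of 0.428 was past 1.5-fold but carried an interval from 0.145 to 1.15, so that a fall, no difference or a small rise was not distinguishable at this depth. For Tcp1 no ratio was possible. The median log2 ratio of the 7 members was -0.23 beside 0.05 for all genes with a ratio.

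Set against its own neighbour, which removes the library scaling, Fkbp3 differed between the libraries beyond counting error, while the intervals of Stub1 and Ppib spanned 1. The ratio of Fkbp3 to Prpf39 was 1.83-fold higher in the transgenic library (exact interval of the conditional odds ratio 1.36 to 2.48). The ratio of Stub1 to Jmjd8 was 0.949 of its non-transgenic value (0.621 to 1.45). That of Ppib to Snx22 was 0.458 of it (0.154 to 1.24). The plot of ratios shows the Fkbp3 interval as the only one of the 3 that lies wholly on one side of 1.

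**Figure D3:**
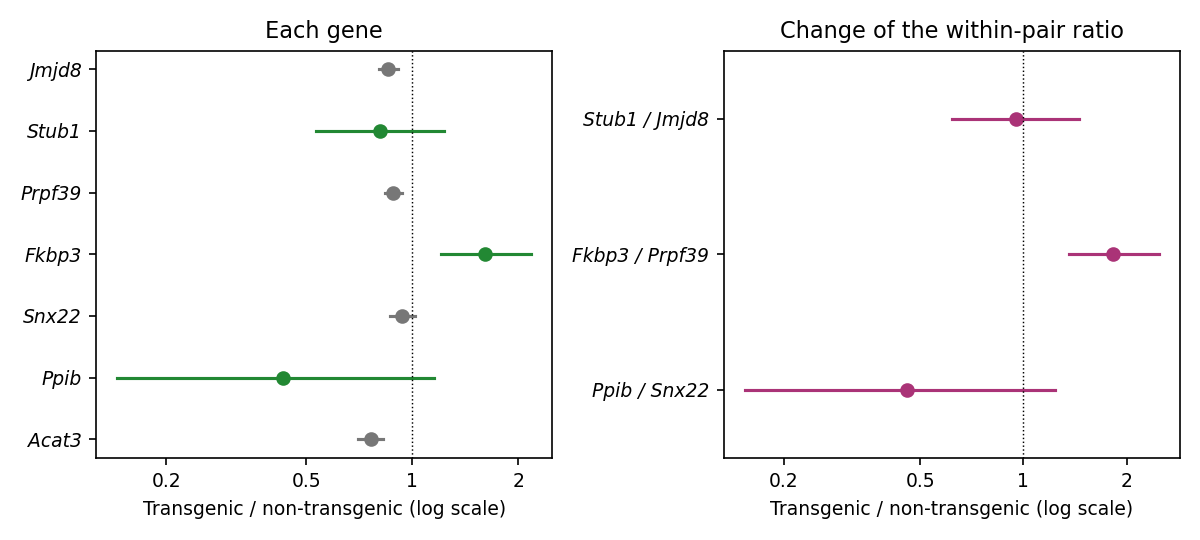
Transgenic over non-transgenic ratios on a log scale with 95% counting intervals (lines), for each gene after TMM scaling on the left (grey neighbours, green folding genes) and for the within-pair ratio, which needs no scaling, on the right. Fkbp3 at 1.61 and Fkbp3 over Prpf39 at 1.83 lie above 1 with their intervals, while the intervals of Stub1 and Ppib cross 1.

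Of the 3 comparisons between pairs, 2 had intervals away from 1. The change of Stub1 relative to Jmjd8 was 0.519 of that of Fkbp3 relative to Prpf39 (approximate 95% counting interval 0.308 to 0.874). The change of Fkbp3 was 3.99 times that of Ppib (1.35 to 11.8). Stub1 against Ppib gave 2.07 (0.673 to 6.39), an interval that spans 1. Fkbp3 thus stood apart from both of the others in these 2 libraries.

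A sum over both genes of a pair does not change when a read of the shared stretch is given to one of them rather than the other. These sums had ratios of 0.854 for Jmjd8 and Stub1 (0.804 to 0.907), 0.903 for Prpf39 and Fkbp3 (0.855 to 0.955), 0.929 for Snx22 and Ppib (0.856 to 1.01) and 0.762 for Acat3 and Tcp1 (0.703 to 0.826). With total counts alone the sums of Prpf39 and Fkbp3 and of Snx22 and Ppib turned to 1.02 and 1.04. With DESeq2 scaling the sum of Snx22 and Ppib was 1.002. No pair sum reached 1.5-fold in either direction, and each followed its neighbour, which supplies nearly all of the sum.

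The deposited counts are given per RefSeq transcript accession, and this bears on Stub1 and Tcp1. All 48 and 49 counts of Stub1 lay on 1 non-coding, intron-retaining transcript that had 178 bp of exon outside the other mapped Stub1 accession. The coding Stub1 accession, with 573 bp of its own, had 0 counts in both libraries, as did the remaining non-coding one. Tcp1 has 2 coding accessions of 1902 and 2446 bp, with 53 and 597 bp not held by the other, and both stood at 0. Fkbp3, Ppib and the 4 neighbours have 1 accession each. Among the other 111 folding genes of the lists described below, 56 of 60 with 1 accession had a count in at least 1 library, with median counts of 7.5 and 12.5. Of 51 with more accessions, 7 had a count, with a median of 0 in both libraries. A count of 0 for Tcp1 thus went with a class of genes that were mostly at 0. What part the number of accessions has in it was not tested.

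Acat3 has a near-identical copy beside it. The coding sequences of Acat3 and of Acat2, on the same strand (12942890 to 12960747) with its 3' end 2290 bp from the start of Acat3, were identical at 1167 of 1194 bases, or 97.7%. Of all 50-base stretches of the Acat3 transcript, 48.7% also occur in Acat2 transcripts. Acat2 had 0 and 1 counts against 1245 and 1193 for Acat3, so counts were not spread over both copies. Reads from the shared stretches could belong to either, and the Acat3 count is uncertain for that reason as well. Of the other 7 genes, Jmjd8, Prpf39, Fkbp3 and Snx22 shared no 50-base stretch with transcripts of another gene. Ppib shared 3.56% of its stretches with Gm7588, Stub1 0.758% with Mir3082, a microRNA gene inside it, and Tcp1 0.240% with Tcp1-ps1.

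The high counts stopped at the neighbours. Within 20 kb of the Jmjd8 and Stub1 pair, Wdr24, which ends 137 bp before Jmjd8 on the same strand, had 2 and 4 counts, Wdr90 had 3 and 0, and Rhbdl1 and Rhot2 had 0 in both. Csnk1g1 near Ppib had 3 and 2 counts, and Snx1, another sorting nexin beyond Snx22, had 0 and 2. Fancm and Togaram1 on either side of Prpf39 and Fkbp3 had none. At the other end of Tcp1, Mrpl18 shares 141 bp of exon with it from the opposite strand and had 26 and 36 counts. Mrpl18 encodes a mitochondrial ribosomal protein, and was the most counted gene named in the files within 20 kb of any pair, the pairs themselves aside.

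Unequal counts were common among opposite-strand pairs in these libraries. Of 670 pairs of genes with at least 1 bp of shared exon and at least 30 counts over both genes and libraries, 51.3% differed by 10-fold or more in non-transgenic hearts and 51.8% in transgenic hearts. All 4 pairs were at least 10-fold unequal in both libraries, which is what they were picked for. Counts under 3 were set to 3 for this ranking. Acat3 and Tcp1 ranked 5 of 670 in both libraries, Snx22 and Ppib 48 and 16, Jmjd8 and Stub1 104 and 93, and Prpf39 and Fkbp3 126 and 222. All 4 pairs stood further back, as a share of pairs, when only those with at least 100 counts were ranked, Acat3 and Tcp1 at 1.40% against 0.746%. Pairs with few counts cannot be very unequal above a floor of 3. Leaving them out thus raised these shares largely through the smaller number of pairs. Prpf39 and Fkbp3 stood at the most unequal 35.3% and 61.3% of pairs, against 18.8% and 33.1% before. Jmjd8 and Stub1 stood at 29.1% and 26.1%, against 15.5% and 13.9%, and Snx22 and Ppib at 13.4% and 4.48%, against 7.16% and 2.39%. By total count over all 670 pairs, Acat3 and Tcp1 ranked 13, Snx22 and Ppib 14, Jmjd8 and Stub1 6, and Prpf39 and Fkbp3 5. They were therefore among the most counted pairs and, apart from Acat3 and Tcp1, not the most unequal ones.

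**Figure D4:**
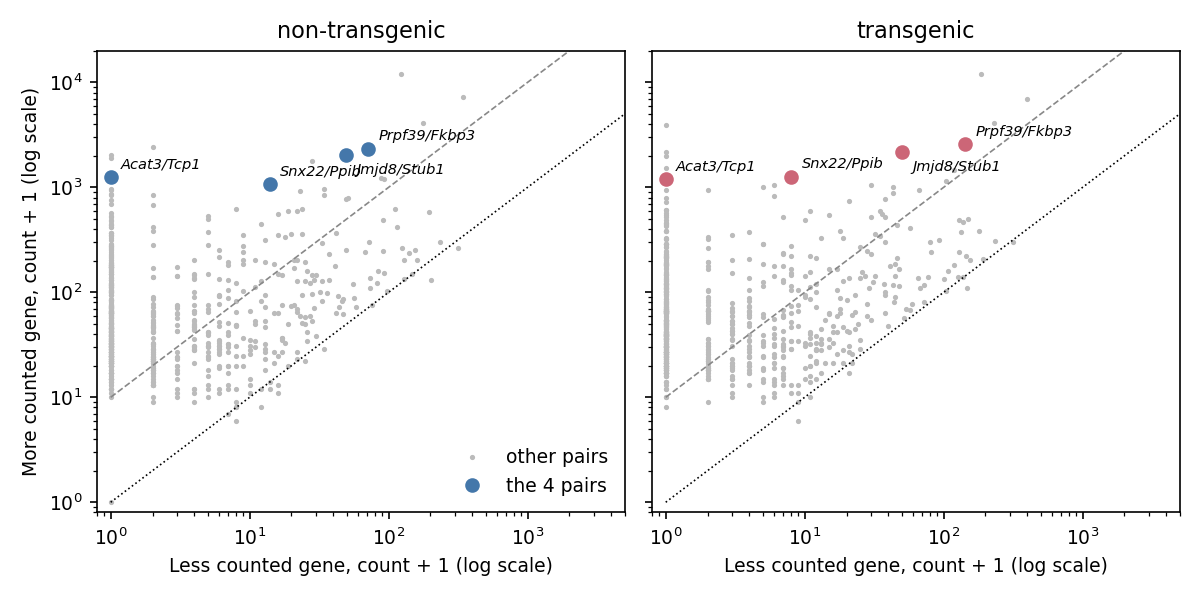
Count of the more against the less counted gene of 670 opposite-strand pairs in each library, both after adding 1 and on log scales, with the more counted gene chosen over both libraries; the dotted line marks equal values and the dashed line a 10-fold gap. The 4 pairs (large points) lie above the dashed line, with Acat3 and Tcp1 at the left edge because Tcp1 had 0 counts.

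A muscle gene headed the pairs more unequal than Acat3 and Tcp1. Myl2, the ventricular myosin light chain, had 2405 and 3916 counts against 1 and 0 for Ccdc63. Gm15441 had 1907 and 1980 against 0 and 0 for Txnip, a regulator of glucose uptake and redox state. Nkx6-2, a transcription factor gene of the nervous system, had 1341 and 1521 against 0 and 0 for Inpp5a, and Jmjd8 itself had no count on the other strand at Mir3082. Another pair of chaperone genes ranked 8 and 9. Cryab, the small heat shock protein alphaB-crystallin, had 861 and 997 counts against 0 and 4 for its opposite neighbour Hspb2. There the more counted gene was itself a chaperone, as is its partner.

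Other folding genes with an opposite-strand neighbour showed both patterns. In the lists below, 14 folding genes beside the 4 members had such a neighbour and at least 30 counts over the pair. The opposite gene was counted more in both libraries in 8 of the 14 and less in 6. Ppif, the mitochondrial cyclophilin D, had 15 and 14 counts against 554 and 549 for Ppifos. Unc45b, a chaperone of muscle myosin, had 21 and 37 against 599 and 524 for Slfn5os. These resemble the 4 pairs in direction. In the other direction, Hsp90b1, the HSP90 of the endoplasmic reticulum, had 141 and 184 counts against 2 and 0 for 1810014B01Rik. The protein disulfide isomerase Pdia3 had 30 and 66 against 1 and 1 for Catsper2, and the TRiC subunit Cct8 had 88 and 90 against 55 and 44 for Usp16. Genes with no opposite-strand overlap could be well counted as well, as Hsp90ab1 was at 380 and 451 counts.

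**Figure D5:**
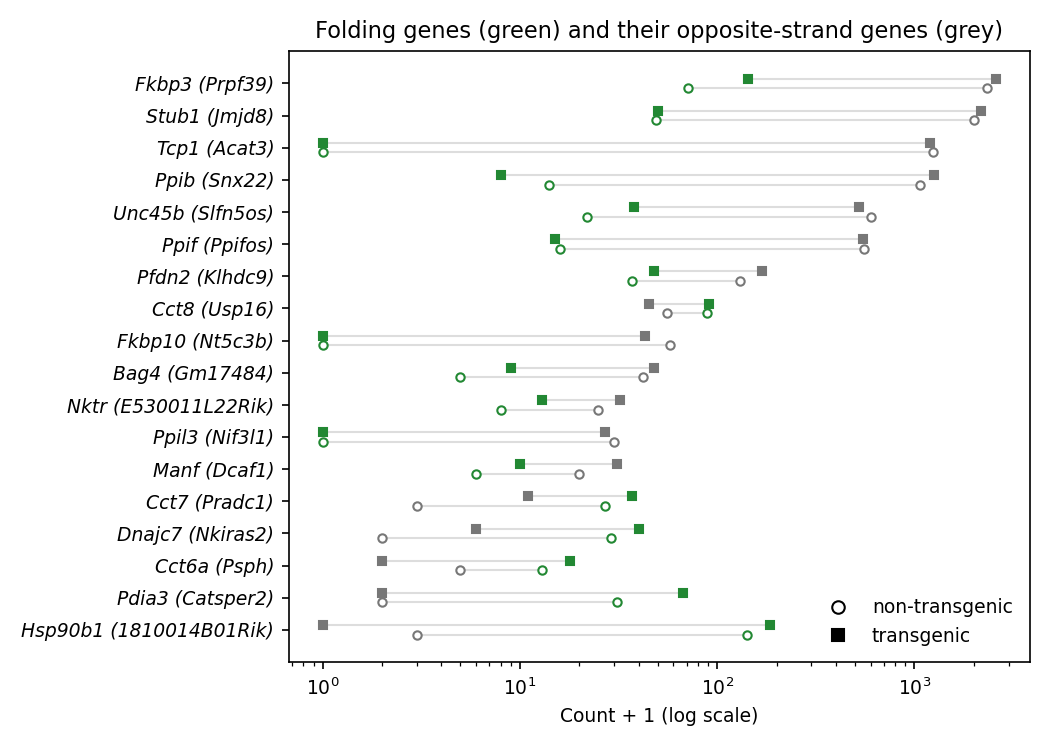
Counts after adding 1, on a log scale, of the 18 folding genes (green) whose opposite-strand gene (grey, named in brackets) shares exon sequence and whose pair had at least 30 counts, open circles for the non-transgenic and filled squares for the transgenic library. The grey points lie to the right in 12 of the 18 rows, the 4 pairs at the top among them, and the green points in the other 6.

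Within their own families the folding genes of the pairs were unevenly placed. Fkbp3 was the most counted of 17 FK506-binding protein genes, ahead of the HSP90 cochaperone Fkbp4 at 49 and 63 counts. Most of the 17 genes were at 0 in both libraries, and most of those at 0 have more than 1 listed transcript, unlike Fkbp3. Of the 3 FK506-binding protein genes with a ratio, Fkbp3 was higher and 2 were neither, with Fkbp4 at 1.02 (0.693 to 1.52). Among 17 cyclophilin genes Ppib followed Ppig (40 and 33), Ppif and Ranbp2 (9 and 16) in summed counts. Of 9 cyclophilins with a ratio, 8 were neither and 1 was lower, Ppic, with 5 counts against 0, at least 2.10-fold lower against the floor and with a counting interval down to 1.15-fold. Among 15 TRiC and prefoldin genes, the 9 with a ratio were all neither higher nor lower after TMM scaling. Pfdn5, a prefoldin subunit gene, was past the call with DESeq2 scaling (2.10, 1.01 to 4.70) and on total counts (2.19, 1.05 to 4.90). The TRiC subunits Cct8, Cct7 (26 and 36), Cct3 (19 and 24), Cct4 (19 and 20) and Cct6a (12 and 17) were counted and have 1 accession each. The subunit genes Cct2, Cct5 and Cct6b, which like Tcp1 have 2 accessions, were at 0 in both libraries as Tcp1 was. Pfdn2, a prefoldin subunit gene with 3 listed transcripts, went the other way. It had 36 and 47 counts, against 129 and 167 for Klhdc9 on the opposite strand.

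Stub1 belongs with the HSP70 and HSP90 system, in whose list 22 of 48 genes had a ratio, of which 2 were lower, 20 were neither and 0 were higher. The most counted were Hsp90ab1, with a ratio of 0.944 (0.821 to 1.09), and Hsp90b1, with 1.04 (0.829 to 1.30). Those lower were Hspa12b at 26 and 15 counts, 2.18-fold lower (1.11 to 4.43), and Hspd1 at 5 counts against 0, at least 2.10-fold lower against the floor (interval down to 1.15-fold). Hspd1 encodes the mitochondrial chaperonin HSP60, which was kept in this list but is neither an HSP70 nor an HSP90. With total counts alone Hspa12b, at a ratio of 0.516 (0.254 to 1.01), was no longer past the call. Of 10 folding enzymes of the endoplasmic reticulum with a ratio, among 20 in the files, 1 was higher and 9 were neither. Pdia3 was the higher one, at a ratio of 1.75 (1.12 to 2.79). Calr, the lectin chaperone calreticulin, had 78 and 117 counts and a ratio of 1.19 (0.888 to 1.61). Ppib, a member of that list, had a ratio below 1 while the list's median log2 ratio was 0.54.

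In counts the neighbours stood far above their own families. Each neighbour has 1 listed transcript, while most relatives at 0 in both libraries have more than 1. What part this has in the standing of the neighbours was not tested. Jmjd8 held 2012 of the 2382 and 2164 of the 2438 counts on 27 JmjC-domain genes. The next was Riox2, a ribosomal oxygenase gene opposite Crybg3, with 315 and 232 counts, 1.71-fold lower (1.44 to 2.03). Kdm6b, a histone demethylase, was lower too, with 10 and 3 counts, 4.19-fold (1.08 to 23.7), though with total counts alone its interval reached 1.04 as a ratio and ended the call, and 10 of the 12 with a ratio were neither. Prpf39 held nearly all of the 2416 and 2676 counts on 20 genes of the U1 snRNP and early spliceosome. Of 8 with a ratio, Snrpb was higher (1 and 11 counts, a ratio of 8.75 with an interval of 1.27 to 376), Nol3 (51 and 36 counts, 1.78-fold) and Luc7l (5 and 0, at least 2.10-fold against the floor, interval down to 1.15-fold) were lower and 5 were neither. Nol3 stood in that list but encodes ARC, an apoptosis repressor of heart and muscle, and not a spliceosome protein.

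Snx22 held 1070 of the 1146 and 1259 of the 1351 counts on 30 sorting nexin genes. The second, Snx17, which recycles membrane proteins from endosomes, had 13 and 19. Of 11 with a ratio, Snx25 was lower (8 and 1 counts, 10.1-fold with an interval of 1.35 to 446) and 10 were neither. Among 8 thiolase genes Acat3 led, ahead of the mitochondrial Acaa2 (156 and 128) and Acat1 (96 and 138). Acaa2 was 1.53-fold lower (1.21 to 1.95) and the other 3 with a ratio were neither. With DESeq2 scaling Acaa2 had a ratio of 0.703 and on total counts of 0.733, short of 1.5-fold. Median log2 ratios were -0.43 for cyclophilins, 0.32 for FK506-binding proteins, 0.08 for TRiC and prefoldin, 0.15 for the HSP70 and HSP90 system, -0.49 for JmjC genes, 0.24 for spliceosome genes, 0.18 for sorting nexins and -0.10 for thiolases. Joined and without the 8 members, 2 of the 79 family genes with a ratio were higher, 9 were lower and 68 were neither, with a median log2 ratio of 0.12 beside 0.05 for all genes.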

How the data were processed

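Messenger RNA of 1 library per genotype, each from 3 combined hearts, was measured. The authors deposited raw counts of reads per RefSeq transcript accession, made with STAR and HTSeq on mm10 per the submitters' processing notes. For versions, annotation and strand setting, the answer is not given in the sources used here. A RefSeq table of GRCm38.p6 gave names to 41252 of 41449 accessions and GENCODE M21 to 99, with 98 left unnamed. Counts were summed over 25004 genes, and exon overlaps between opposite strands were found with bedtools 2.31.1 in any annotated transcript for 24117 genes.

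A single library per genotype allows no replicate test, so none was run. Ratios used TMM factors (0.943 and 1.06) from edgeR 4.0.16 in R 4.3.3, with exact 95% Clopper-Pearson intervals. They were computed with scipy 1.17.1 and tested on counts simulated with known folds. The simulated counts carried counting error only, so spread between animals was not part of that test. A gene had a ratio with more than 3 counts in a library, and a 0 was replaced by a floor of 3. A gene was higher or lower at 1.5-fold with its interval on that side of 1. Intervals between pairs combined the log widths of both odds ratio intervals and are approximate. The alternatives tried were size factors from DESeq2 1.42.0, upper-quartile factors, scaling by totals, other filters and thresholds, and single accessions. The members and lists were chosen with earlier results of these data known. Named were the 8 members, list genes past the threshold, the 2 most counted of each list, genes beside a member, near-identical copies and unequal pairs; further list genes were chosen after their values were seen. The number of other sample columns was 0.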

Additional observations from a re-analysis of the deposited data

How the results depend on the processing

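No paired analysis was possible because each genotype has 1 library, and leaving out a replicate was not possible for the same reason. DESeq2 size factors and total counts alone moved the log2 ratio of every gene up by 0.11 and 0.17, which carried some deeply counted genes out of their counting intervals. With DESeq2 size factors the ratio of Jmjd8 was 0.922 and of Prpf39 0.951, and the pair sums were 0.921 (Jmjd8 and Stub1) and 0.974 (Prpf39 and Fkbp3). With total counts alone Jmjd8 was 0.961, Prpf39 0.992, Snx22 1.05 and Acat3 0.856, and the sums were 0.960, 1.02, 1.04 (Snx22 and Ppib) and 0.856 (Acat3 and Tcp1). Per exon length the share of Fkbp3 in its pair was 10.7% and 17.9% and that of Ppib 3.35% and 1.56%. On the length of the counted accession alone, an alternative chosen after seeing the data, Stub1 had 3.42% and 3.25%. Among pairs with at least 100 counts, 74.2% and 73.1% were at least 10-fold unequal. For the family genes without the members, 3 were higher and 8 lower by DESeq2, and 3 and 6 by totals. The median log2 ratio was 0.23 by DESeq2 and 0.29 by totals, 1 was higher at a 2-fold threshold, and 5 were lower when at least 10 counts were required. Of the recomputed values 103 stayed in place and 34 moved. A further 4 lost a call (Acaa2 by DESeq2 and totals, Hspa12b and Kdm6b by totals) and 2 gained one (Pfdn5 by both). No value that was called changed its side of 1. Uncalled values were not labelled for this. Among them Snx22 and the sums of Prpf39 and Fkbp3 and of Snx22 and Ppib changed side with total counts alone. With DESeq2 size factors Snx22 (1.01) and the sum of Snx22 and Ppib (1.002) changed side as well. Fkbp3 stayed higher under each scaling tried. Of the 7 ratios that of Ppib, at 13 and 7 counts, had the widest interval.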
